A study of Mus musculus with 2 samples.

Results

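Cycling leukocytes were described in 2 single-cell RNA sequencing libraries of mouse optic nerve, C-ON and FMC_new. A cell was counted as a member when its summed UMIs (unique molecular identifiers, each standing for 1 captured RNA molecule) of *Mki67*, *Top2a* and *Ube2c* reached 4 and at least 1 UMI came from *Ptprc*, which encodes the pan-leukocyte surface protein CD45. Of 25652 cells kept, 10265 held a *Ptprc* UMI and 314 were members. Both libraries carry the genotype label NF1-OPG, which the methods give as *Nf1* flox/mut mice with a GFAP-Cre transgene, so that every cell carries the mutant allele and Cre acts in cells of GFAP-expressing lineages. The mice were 12 weeks old, and the protocol speaks of tissue pooled from 10 of them, whereas the methods count each library as a tumor sample. The word control stands in the title of C-ON with no explanation in any source, and no wild-type or treated library was analysed here. The same protocol text covers optic nerve and the meningeal dura, and both libraries are labelled as optic nerve.

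Proliferating cells pass through DNA synthesis and then mitosis, and each stage has its own transcripts. Replication genes such as those of the MCM helicase and ribonucleotide reductase are made around the entry into S phase under E2F factors. Mitotic cyclins, kinesins and kinetochore genes follow in G2 and M phase and are repressed in resting cells by the DREAM complex. Leukocytes in tissue are mostly non-dividing, and T cells, dendritic cells, macrophages and antibody-secreting plasmablasts differ in how readily they divide.

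The 3 genes that chose the members have these places in the mouse genome. *Mki67* lies at chr7:135689784-135716361 on the minus strand of GRCm38 and encodes the coat protein of mitotic chromosomes. *Top2a*, the topoisomerase that untangles replicated DNA, lies at chr11:98992943-99024189 on the minus strand. *Ube2c*, which passes ubiquitin to mitotic cyclins through the anaphase-promoting complex, lies at chr2:164769898-164778822 on the plus strand.

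Because mitosis and replication genes moved together in the members, their promoters were read from RefSeq, from 250 bases before to 50 bases after each start. The letters searched on both strands were TTTGAA, the core of the cell cycle genes homology region, CCAAT, the site of NF-Y, and TTCCCGC, a site of E2F factors. The sequences of 2 mitosis genes, *Ube2c* and *Ccnb2* (cyclin B2), and of the replication licensing gene *Cdc6* are shown because they hold different motifs. They are on build GRCm38.p6, at chr2:164769679-164769978 (plus strand), chr9:70421505-70421804 (minus strand) and chr11:98907901-98908200 (plus strand), and capitals mark matches to any of the motifs, which may overlap.
Ube2c: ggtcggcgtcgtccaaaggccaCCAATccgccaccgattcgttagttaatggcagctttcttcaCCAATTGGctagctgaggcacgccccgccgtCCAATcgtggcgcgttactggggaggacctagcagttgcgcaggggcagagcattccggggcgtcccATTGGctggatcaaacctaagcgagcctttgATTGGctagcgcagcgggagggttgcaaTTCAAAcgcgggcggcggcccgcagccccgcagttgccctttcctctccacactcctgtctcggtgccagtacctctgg
Ccnb2: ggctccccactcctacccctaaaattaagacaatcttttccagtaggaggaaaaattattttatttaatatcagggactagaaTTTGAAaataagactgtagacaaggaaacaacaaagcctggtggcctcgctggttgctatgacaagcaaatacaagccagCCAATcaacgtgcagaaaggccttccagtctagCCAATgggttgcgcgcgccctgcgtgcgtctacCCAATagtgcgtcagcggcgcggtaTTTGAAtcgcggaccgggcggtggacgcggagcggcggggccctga
Cdc6: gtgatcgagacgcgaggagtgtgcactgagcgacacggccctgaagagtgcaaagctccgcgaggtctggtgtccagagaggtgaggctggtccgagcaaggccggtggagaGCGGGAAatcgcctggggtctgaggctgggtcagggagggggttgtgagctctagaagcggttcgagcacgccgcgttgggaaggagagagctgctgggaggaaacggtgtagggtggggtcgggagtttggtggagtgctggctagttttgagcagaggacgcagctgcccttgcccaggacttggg
*Ube2c* held 1 TTTGAA and 6 CCAAT matches, *Ccnb2* held 2 and 3, and *Cdc6* held 1 TTCCCGC and neither of the others. Of the 33 listed mitosis genes 28 were matched, with 30 promoters, and 21 of these (70%) held TTTGAA, beside 17.9% of all 32851 promoters. CCAAT was in 23 of the 30, beside 37.4% of all promoters. It was also in 14 of the 25 replication promoters (56%) and in 7 of 9 promoters of chromatin and tubulin genes. TTCCCGC was in 8 of the 25 promoters (32%) of the 22 matched replication genes and in 0 of the 30 mitosis promoters, beside 4.60% of all. A match of letters is a description and not evidence that a factor binds there.

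C-ON held 85101211 UMIs over 10845 barcodes and FMC_new 129113325 UMIs over 21341 barcodes, and 296 barcode sequences occurred in both libraries, none of them a member in both. Among kept cells with *Ptprc*, 52 of 2017 (2.58%, 95% exact binomial interval 1.93% to 3.37%) were members in C-ON, and 262 of 8248 (3.18%, 2.81% to 3.58%) in FMC_new. These intervals overlapped, and they cover counting error only. Most cells over the cycling cut had *Ptprc*, with 52 of 59 in C-ON and 262 of 309 in FMC_new. The 54 without *Ptprc* include 24 with at least 2 summed UMIs of glial progenitor genes such as *Pdgfra* and *Ptprz1*, and 17 members also reached that glial level.

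Members held far more RNA than resting leukocytes, defined as *Ptprc* cells with 0 UMIs of the 3 rule genes. Their median was 12151.5 UMIs against 4504 in C-ON and 10080.5 against 4187.5 in FMC_new. A cell with more UMIs reaches a fixed cut more easily, so the rule was also applied after each cell was thinned to 2000 UMIs. Then 19 cells of C-ON and 80 of FMC_new passed, which is 1.60% of the cells of both libraries that were deep enough and still held a *Ptprc* UMI.

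The number of mitosis genes rose steadily across the cut. Cells with a sum of 4, just inside, had medians of 5 mitosis genes detected in C-ON (5 cells) and 6 in FMC_new (32 cells). Cells with a sum of 3, just outside, had a median of 3 in both libraries (8 and 50 cells), and resting cells had a median of 1. At 30 or more UMIs the median was 26 of 33 mitosis genes in both libraries. At least 5 mitosis genes were detected in 45 of 52 members of C-ON and 238 of 262 members of FMC_new, against 0.624% and 0.695% of resting cells, which are shallower. Since these genes belong to the program that the rule selects, the values describe the choice.

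**Figure D1:**
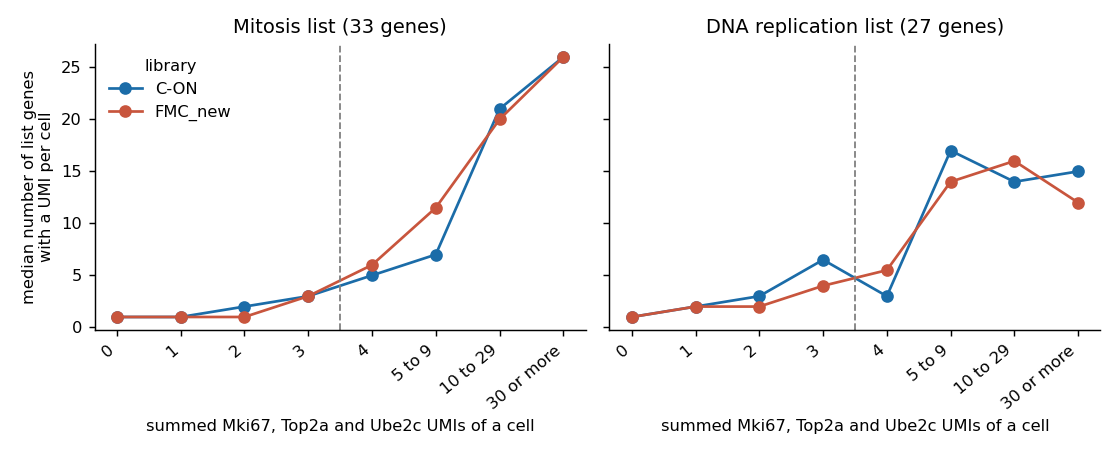
Median number of mitosis list genes (left, of 33) and DNA replication list genes (right, of 27) with a UMI per cell, on the y axis, against the summed *Mki67*, *Top2a* and *Ube2c* UMIs of the cell on the x axis, for the 2 libraries. The dashed line marks the cut, with members from 4 on. Mitosis genes rise from a median of 1 at a sum of 0 to 26 at 30 or more, while replication genes level off at 12 to 17 from a sum of 5.

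The *Mki67*, *Top2a* and *Ube2c* counts varied widely among members. In T gate members of FMC_new the lowest, median and highest counts were 0, 6 and 53 UMIs for *Mki67*, 0, 6 and 32 for *Top2a* and 0, 2 and 42 for *Ube2c*. *Ube2c*, whose transcript peaks late in the cycle, was at 0 UMIs in 38 of these 117 cells and in 8 of the 28 of C-ON.

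The members were divided by lineage gates on raw UMIs. The T gate needs 2 summed UMIs of *Cd3d*, *Cd3e* and *Cd3g*, the CD3 chains of the T cell receptor. The *Jchain* gate needs 10 UMIs of *Jchain*, which joins secreted IgA and IgM. The *H2-Ab1* gate needs 5 UMIs of *H2-Ab1*, an MHC class II chain of dendritic cells, macrophages and B cells. Of 314 members, 145 (46.2%) met the T gate alone, 80 (25.5%) the *H2-Ab1* gate alone, 7 (2.23%) the *Jchain* gate alone, 64 (20.4%) more than 1 gate and 18 none. T gate cells were thus the commonest cycling leukocytes in both libraries, with 28 of 52 in C-ON and 117 of 262 in FMC_new.

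Within the gates the share of cycling cells was 3.30% (2.20% to 4.73%) of 849 T gate cells in C-ON and 3.92% (3.25% to 4.68%) of 2983 in FMC_new. In the *H2-Ab1* gate it was 2.63% (1.45% to 4.38%) of 532 cells and 2.66% (2.06% to 3.37%) of 2480. The T and *H2-Ab1* intervals overlapped in C-ON and also in FMC_new. When the rule and the gates were applied at 2000 UMIs, fewer cells met the gates, so these shares are not of the same cells. The T gate had 2.14% (1.11% to 3.71%) of 560 cells in C-ON and 2.29% (1.70% to 3.01%) of 2183 in FMC_new. The *H2-Ab1* gate had 1 of 294 (0.340%, 0.00861% to 1.88%) and 17 of 1484 (1.15%, 0.669% to 1.83%). *H2-Ab1* gate cells were deeper than T gate cells, with resting medians of 6300 against 3488 UMIs in C-ON and 6046 against 3210 in FMC_new.

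**Figure D2:**
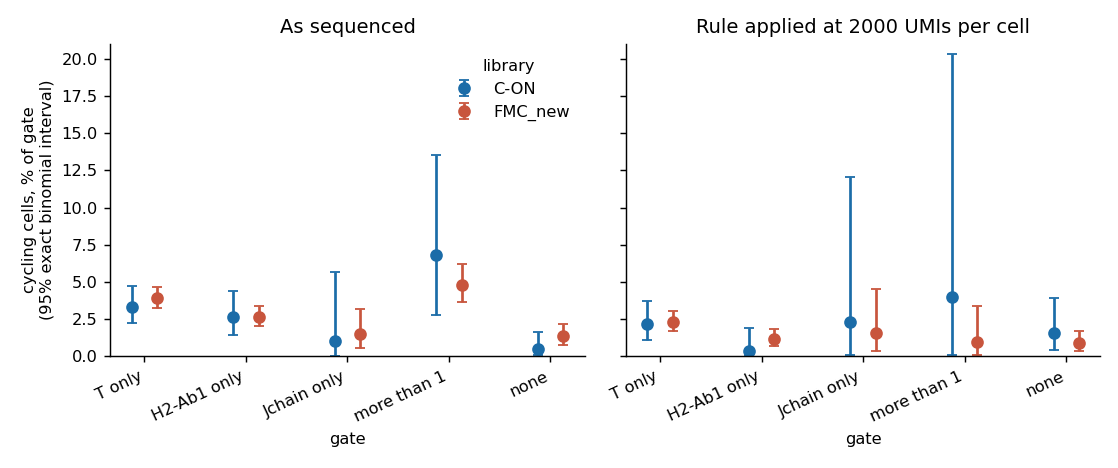
Cycling cells as percent of the *Ptprc* cells of each gate (y axis) by gate (x axis) in C-ON and FMC_new, as sequenced (left) and with the rule and the gates applied after thinning to 2000 UMIs per cell (right). Points are shares and bars 95% exact binomial intervals. As sequenced, T gate shares lie at 3.30% and 3.92% and *H2-Ab1* gate shares at 2.63% and 2.66%. At 2000 UMIs, where fewer cells meet the gates, the *H2-Ab1* shares are 0.340% (1 of 294 cells) and 1.15% (17 of 1484).

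Cells in more than 1 gate made up 13.5% of members and 4.48% of resting cells in C-ON, and 21.8% and 13.5% in FMC_new. The part of droplets holding more than 1 cell and of captured free RNA in this was not tested. The doublet caller Scrublet marked 1 barcode of C-ON and 0 of FMC_new, which is too few for it to have worked, and no cell was removed for it. All T and *H2-Ab1* comparisons use cells of a single gate.

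T cell genes that the rule did not use were found in the T gate members. All 8 listed T cell markers were detected among the members of both libraries, with *Cd2*, an adhesion receptor, in 26 of 28 and 99 of 117 members, and *Trac*, the alpha chain constant region, in 21 and 86. *Trdc*, the delta chain constant region, was at 0 UMIs in all 28 members of C-ON and all 117 of FMC_new, with exact upper limits on the share of cells with a UMI of 12.3% and 3.10%. The natural killer receptor gene *Ncr1* was also at 0 in both. Other genes of the gamma-delta and natural killer lists were detected. In C-ON and FMC_new, *Tcrg-C2* was in 17.9% and 12.8% of members against 10.7% and 9.90% of resting cells. *Tcrg-C4* was in 17.9% and 5.13% against 8.74% and 5.38%, and *Eomes* in 25% and 13.7% against 8.32% and 7.68%. Resting cells are shallower. *Tcrg-C1*, *Klrb1c* and *Klra8* were at 0 in the members of both.

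The most common T gate members were cells with *Cd8a* or *Cd8b1*, the chains of the cytotoxic coreceptor. Of the 28 in C-ON, 21 had a *Cd8* UMI without *Cd4* or *Foxp3*, 5 had *Cd4*, 1 had *Foxp3* and 1 had none of these. Of the 117 in FMC_new, 51 were *Cd8*, 22 *Cd4*, 21 *Foxp3*, 5 *Cd8* and *Cd4* together, and 18 none. The *Cd8* subset was also the commonest among resting T gate cells. It made up 75% of members against 51.5% of resting cells in C-ON, and 43.6% against 49.3% in FMC_new. *Foxp3* is the master factor of regulatory T cells, and *Foxp3* cells of FMC_new had the highest cycling share of these subsets, 6.98% (4.37% to 10.5%) of 301 against 3.42% (2.55% to 4.47%) of 1493 *Cd8* cells and 4.23% (2.67% to 6.34%) of 520 *Cd4* cells. The intervals of *Foxp3* and *Cd8* cells overlapped slightly. In C-ON the shares ran in the reverse order. They were 4.63% (2.89% to 6.98%) of 454 *Cd8* cells and 3.597% (1.18% to 8.19%) of 139 *Cd4* cells. Of 59 *Foxp3* cells 1 was cycling (1.69%, 0.0429% to 9.09%). These intervals overlapped, so the order of the subsets was not resolved in C-ON. With subsets set at 2000 UMIs, the FMC_new shares were 6.67% (3.37% to 11.6%) for *Foxp3*, 3.65% (2.69% to 4.84%) for *Cd8* and 5.95% (3.67% to 9.04%) for *Cd4*, and these intervals overlapped.

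The members used many T cell receptor beta chains. *Trbv* segments, the variable parts of the beta chain, were found in 26 of 28 members of C-ON, spread over 13 segment genes, and in 111 of 117 of FMC_new, over 19 genes. In FMC_new the commonest were *Trbv19* (22.5%, 15.1% to 31.4%) and *Trbv12-2* (21.6%, 14.4% to 30.4%), against 17.3% and 17.4% of resting T cells with a segment. Clones were not analysed here.

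Levels were then compared between cycling and resting cells of the T gate as CPM, the UMIs of a gene per 1000000 UMIs, both summed over the cells of a library. A gene was counted as higher or lower when its CPM differed at least 2-fold in the same direction in both libraries with at least 10 UMIs observed or expected among members. Cells of a library are not replicates, so no test was made, and the ± beside a log2 fold is the 95% counting error. Of 5473 genes compared, 448 (8.19%) were higher and 285 (5.21%) lower. The median log2 fold over all genes compared was 0.04 in C-ON and 0.08 in FMC_new. All of these comparisons share the cells that the rule selected, so the counts describe the members and test nothing.

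DNA replication genes were higher throughout, with 25 of 25 compared, beside 8.19% of all genes. Their median log2 fold was 3.46 in C-ON and 2.84 in FMC_new. *Cdc6*, which loads the helicase onto origins, stood at 92.3 against 0.323 CPM in C-ON and 73.5 against 0.958 CPM in FMC_new. *Rrm2*, the ribonucleotide reductase subunit that sets the supply of DNA building blocks, stood at 454 against 3.88 CPM and 368 against 3.40 CPM. The lowest folds in the list were those of *Cdt1*, the partner of *Cdc6* in licensing, with log2 folds of 1.5 ± 0.69 and 1.25 ± 0.41, and *Slbp*, the histone mRNA binding protein, with 2.16 ± 0.34 and 1.82 ± 0.19. Both genes were found in resting cells at 24.5 to 83.6 CPM, so their folds start from a higher base than that of *Cdc6*.

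Mitosis genes had the larger folds, and 30 of 32 compared were higher, beside 8.19% of all genes, with median log2 folds of 6.23 and 5.87. *Ccna2*, cyclin A2, stood at 229 against 0.323 CPM in C-ON and 267 against 0.851 CPM in FMC_new. *Birc5*, the survivin subunit of the chromosomal passenger complex, stood at 369 against 0.970 CPM and 419 against 1.60 CPM. *Cenpa*, the histone variant of centromeres, had a smaller fold, with log2 folds of 2.93 ± 0.44 and 3.56 ± 0.21.

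The exceptions were *Anln* and *Pttg1*. *Anln* encodes anillin of the cleavage furrow and is also made by oligodendrocytes. It stood at 125 against 173 CPM in C-ON and 84.0 against 60.3 CPM in FMC_new, while the share of cells with an *Anln* UMI was 60.7% of members against 17.5% of resting cells in C-ON and 43.6% against 7.15% in FMC_new. Without cells rich in myelin UMIs, described further on, *Anln* was past 2-fold, with log2 folds of 1.75 and 2.77. *Pttg1*, securin, stood at 77.5 against 122 CPM and 87.8 against 119 CPM, and at 2000 UMIs it was found in 14.3% of members against 22.6% of resting cells in C-ON and 15.8% against 21.7% in FMC_new. Whether the *Pttg1* counts include reads of near-identical copies was not tested.

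Chromatin and tubulin genes were higher in all 12 of 12 compared, beside 8.19% of all genes. *Hmgb2*, a DNA-bending protein of dividing cells, was detected in 28 of 28 and 116 of 117 members and had log2 folds of 3.66 ± 0.13 and 3.36 ± 0.08. *H2afx*, the histone variant phosphorylated at DNA breaks, had 3.89 ± 0.30 and 3.37 ± 0.16. Of 45 histone genes compared, 43 were higher and 0 lower, beside 8.19% and 5.21% of all genes. Histone genes are near-identical copies, so the split of reads among them is uncertain.

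Outside the lists, the 15 genes with the highest folds included *Kntc1*, *Knl1* and *Spc24* of the kinetochore, *Esco2* of sister cohesion, the kinesins *Kif4* and *Kif18b*, and *E2f7*, a repressor of the E2F program. *Pclaf*, the PCNA clamp factor, reached 878 against 0.970 CPM in C-ON and 591 against 4.89 CPM in FMC_new, and it was detected in 28 of 28 and 98 of 117 members.

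**Figure D3:**
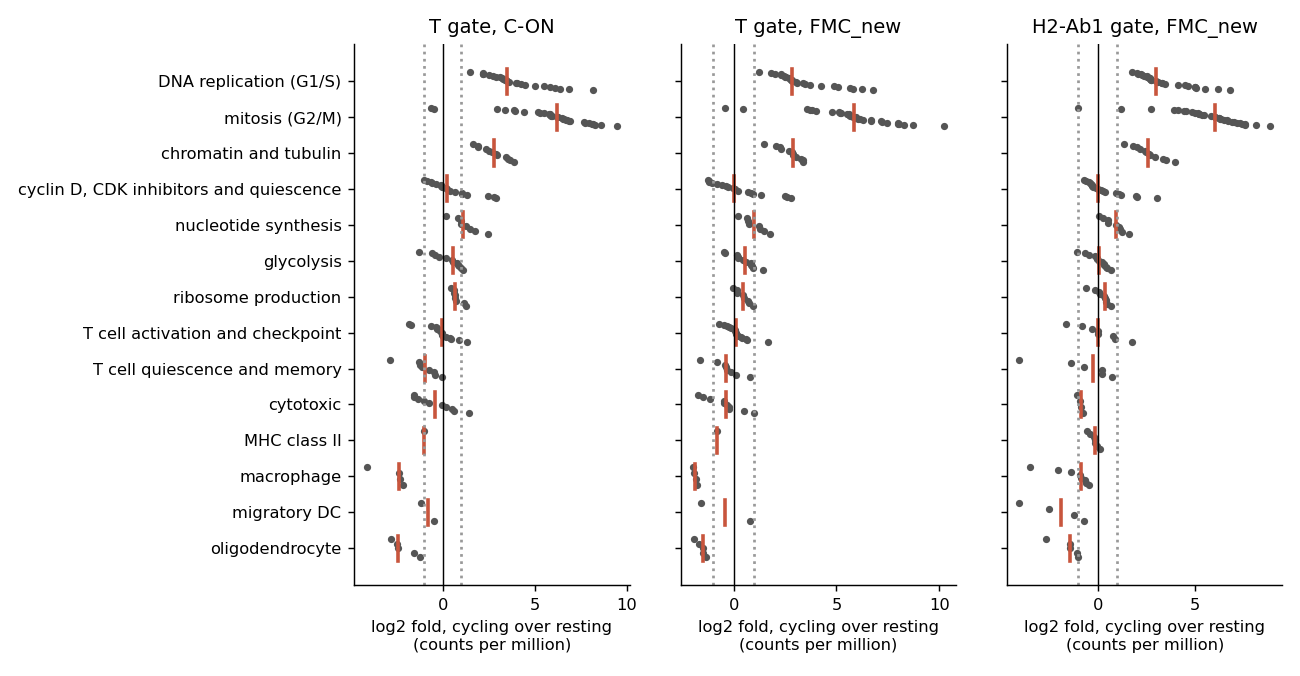
Log2 folds of CPM, cycling over resting cells (x axis), of every gene compared in 14 gene lists (y axis), for the T gate in C-ON and FMC_new and the *H2-Ab1* gate in FMC_new. Dots are genes, red bars list medians and dotted lines a 2-fold change. Replication, mitosis and chromatin lists lie to the right in all panels, the activation list lies around 0, as does the MHC class II list in the *H2-Ab1* gate, and the oligodendrocyte list lies to the left.

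Inhibitors of the cyclin-dependent kinases CDK4 and CDK6 were among the higher genes of cycling T cells. Of 18 genes of cyclin D, CDK inhibitors and quiescence compared, 4 were higher and 0 lower, beside 8.19% and 5.21% of all genes. *Cdkn2a*, whose products hold back CDK4 and protect p53, stood at 70.1 against 9.38 CPM in C-ON and 25.8 against 4.58 CPM in FMC_new. *Cdkn2c*, the p18 inhibitor of CDK4 and CDK6, stood at 118 against 17.5 CPM and 141 against 20.2 CPM. *Rbl1*, the p107 pocket protein, had log2 folds of 2.44 ± 0.64 and 2.58 ± 0.34, and *Cdkn2d*, the p19 inhibitor, 1.04 ± 0.61 and 1.31 ± 0.30. At equal depth the *Cdkn2a* UMIs were in 5 of 28 members (17.9%, 6.06% to 36.9%) against 1.64% (0.789% to 2.99%) of resting cells in C-ON, and in 7 of 114 (6.14%, 2.50% to 12.2%) against 0.746% (0.418% to 1.23%) in FMC_new. *Cdkn2c* was in 25% against 4.10% and in 21.9% against 4.08%. In resting *H2-Ab1* gate cells with C1q or microglia genes, *Cdkn2a* was in 2.24% and 2.14% and *Cdkn2c* in 1.79% and 2.24% at that depth.

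Metabolic lists moved less. Of 8 nucleotide synthesis genes compared 4 were higher, beside 8.19% of all genes, namely *Impdh2*, *Ppat*, *Mthfd2* and *Shmt2*, enzymes of purine and folate metabolism. Of 12 glycolysis genes 1 was higher, *Tpi1*, with log2 folds of 1.11 ± 0.42 and 1.43 ± 0.19, a share near that of all genes. Of 8 ribosome production genes 0 were higher or lower, beside 8.19% and 5.21% of all genes. Their median log2 folds of 0.66 and 0.47 lay above the medians of 0.04 and 0.08 over all genes compared.

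Activation and checkpoint genes did not pass the 2-fold limit in either direction in both libraries. Of 17 compared 0 were called, beside 8.19% higher and 5.21% lower of all genes, with median log2 folds of -0.03 and 0.11. *Pdcd1*, the PD-1 receptor, is a case where depth matters. As sequenced it was found in 64.3% of members against 42.6% of resting cells in C-ON and 61.5% against 46.7% in FMC_new. At 2000 UMIs the shares were 35.7% (18.6% to 55.9%) against 36.1% (32.2% to 40.02%) and 38.6% (29.6% to 48.2%) against 38.4% (36.2% to 40.5%). *Il2ra*, the high-affinity interleukin 2 receptor, differed between the libraries, with log2 folds of -1.73 in C-ON and 1.66 in FMC_new.

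*Tox*, a regulator of chronically stimulated T cells, and *Ikzf2*, the Helios factor of regulatory T cells, stood higher in members at equal depth in FMC_new. *Tox* was in 57.9% (48.3% to 67.1%) against 43.5% (41.3% to 45.7%) of cells there, and in 46.4% (27.5% to 66.1%) against 36.1% (32.2% to 40.02%) in C-ON, where the intervals overlapped. *Ikzf2* was in 43.9% (34.6% to 53.5%) against 26.6% (24.7% to 28.6%) in FMC_new and 39.3% (21.5% to 59.4%) against 23.8% (20.4% to 27.4%) in C-ON, where the intervals overlapped. Neither passed the 2-fold limit on CPM.

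The interleukin 7 receptor gene *Il7r*, which marks resting and memory T cells, was the only called gene of 8 in the quiescence and memory list. It was lower, beside 5.21% of all genes. It stood at 48.0 against 347 CPM in C-ON and 122 against 383 CPM in FMC_new. At 2000 UMIs it was in 1 of 28 members (3.57%, 0.0904% to 18.3%) against 37.4% (33.5% to 41.4%) of resting cells, and in 19 of 114 (16.7%, 10.3% to 24.8%) against 40.2% (38.0% to 42.4%). Resting cells of the *H2-Ab1* gate with C1q or microglia genes, which should lack it, had *Il7r* in 0.448% and 4.19% at the same depth.

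Among 10 cytotoxic genes 2 were lower and 1 higher, beside 5.21% and 8.19% of all genes, so the higher count is near that of all genes. The chemokine gene *Ccl5* stood at 1355 against 4001 CPM in C-ON and 1442 against 4063 CPM in FMC_new. At 2000 UMIs it was in 46.4% (27.5% to 66.1%) against 61.1% (57.2% to 65.0%) and 40.4% (31.3% to 49.9%) against 63.9% (61.7% to 66.0%) of cells, and in 21.1% and 35.04% of the C1q or microglia cells. The intervals of C-ON overlapped. *Fasl*, the death ligand, had log2 folds of -1.36 ± 0.66 and -1.15 ± 0.33, and *Ccl3*, another chemokine, 1.43 ± 0.52 and 1.01 ± 0.27. *Ccl3* was also in 39.5% and 40.7% of the C1q or microglia cells at 2000 UMIs. *Gzmb*, *Prf1*, *Nkg7* and *Ifng* were within 2-fold in at least 1 library.

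**Figure D4:**
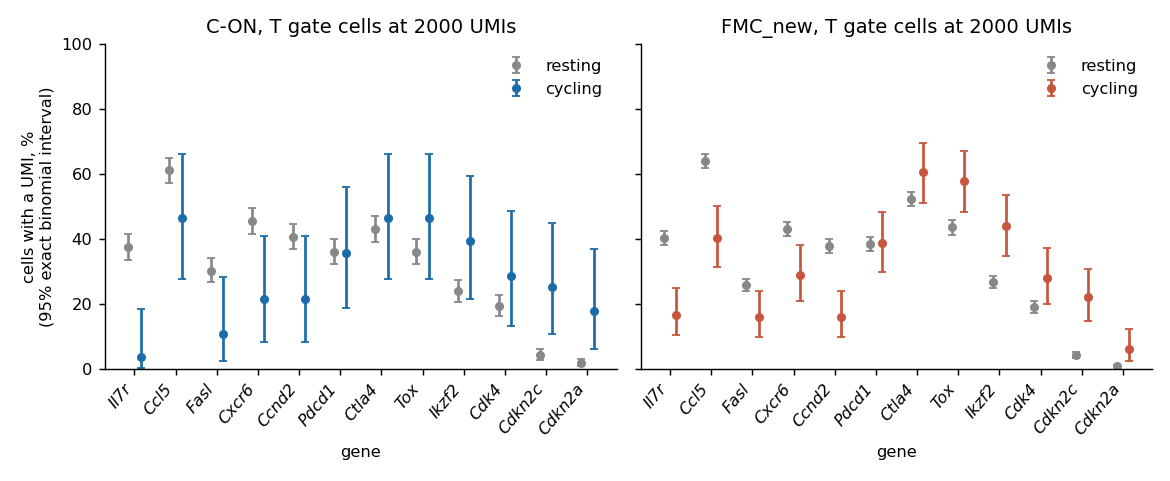
Share of T gate cells with a UMI of each gene (y axis, percent) after thinning to 2000 UMIs per cell, for 12 genes (x axis) in C-ON (left) and FMC_new (right). Grey points are resting and colored points cycling cells, with 95% exact binomial intervals. *Il7r* falls from 37.4% to 3.57% in C-ON and from 40.2% to 16.7% in FMC_new, *Cdkn2c* and *Cdkn2a* stand higher in cycling cells, and *Pdcd1* lies at 35.7% to 38.6% in all 4 groups.

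Macrophage and oligodendrocyte markers were lower in T gate members, whereas the 3 plasma cell markers compared were not called and the transcription factor *Irf8*, listed for type 1 dendritic cells, was higher (log2 folds of 1.10 and 1.01, and 1.09 and 0.90 without the myelin-rich cells described next). All 4 macrophage markers compared were lower, beside 5.21% of all genes. All 5 oligodendrocyte markers were lower, with median log2 folds of -2.45 in C-ON and -1.49 in FMC_new. At least 50 summed UMIs of the oligodendrocyte list were in 96 of 721 resting and 3 of 28 cycling T gate cells of C-ON, and in 155 of 2434 and 4 of 117 of FMC_new. Without these cells, an alternative chosen after the data were seen, 100 genes were lower in place of 285, of which 78 were among the 285, while 433 were higher, of which 412 were among the 448.

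With those cells left out, *Il7r* (log2 folds of -2.92 and -1.66), *Ccl5* (-2.54 and -1.63) and *Fasl* (-1.87 and -1.23) remained lower. The interferon-induced genes *Ifit1* (-3.50 and -3.98), *Ifit3* (-3.25 and -2.61) and *Slfn5* (-3.80 and -3.81) also remained lower, although they rest on 1 to 6 UMIs in the members, and with all cells thinned to 2000 UMIs the *Slfn5* fold nearest 0 turned to 0.15. *Ccl3* was no longer past 2-fold in FMC_new (0.98), and *Ccnd2*, cyclin D2, was past it in both libraries (-1.15 and -1.08), having been at -0.99 and -1.05 with all cells. Further lower genes there, named after their values were seen, were *Txnip* (-1.31 and -1.67), *Mxd4* (-1.56 and -1.44), *Klf3* (-1.81 and -1.41) and *Hbp1* (-2.53 and -1.52), which encode the thioredoxin inhibitor, a partner of MAX, a Krüppel-like repressor and an HMG-box repressor.

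In the *H2-Ab1* gate, members held UMIs of dendritic cell and macrophage genes. *Flt3*, the growth factor receptor of dendritic cells, was in 9 of 14 members of C-ON and 29 of 66 of FMC_new, and *Zbtb46*, the factor of classical dendritic cells, in 6 and 22. *C1qa*, a complement gene of macrophages and microglia, was in 2 of 14 and 32 of 66. T gate members, which should lack these genes, had *Flt3* in 1 of 28 and 0 of 117 cells, *Zbtb46* in 1 and 9, and *C1qa* in 0 and 18. The B cell gene *Cd79a* was in 3 of 14 members of C-ON, and in FMC_new its 12.1% of members was close to the 12.3% of resting cells of the gate, beside 6.84% of T gate members. *Trac* was at 0 UMIs in all 14 and all 66, with exact upper limits on the share with a UMI of 23.2% and 5.44%.

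Cells of the gate were therefore grouped by the marker genes with the most UMIs, a division made after the values were seen. In FMC_new, cells led by *Cd209a*, *Clec10a* and *Mgl2*, genes of type 2 classical dendritic cells, were cycling in 21 of 488 (4.30%, 2.68% to 6.50%). Cells led by *Ly6c2*, *Chil3* and *Plac8*, monocyte genes, were cycling in 11 of 244 (4.51%, 2.27% to 7.92%). Over all 66 members of the gate, *Plac8* was in 28, *Ly6c2* in 19 and *Chil3* in 1. *Ly6c2* stood lower than in resting cells, at 53.3 against 157 CPM, as did the monocyte gene *Lyz2*, at 944 against 2140 CPM. *Plac8* (234 against 273 CPM) and *Ccr2* (155 against 141 CPM) were within 2-fold, so the monocyte name is uncertain. Cells led by *Xcr1* and *Clec9a*, genes of type 1 classical dendritic cells, were cycling in 7 of 182 (3.85%, 1.56% to 7.76%). Cells led by C1q or microglia genes, the largest group, were cycling in 24 of 1287 (1.86%, 1.20% to 2.76%). The intervals of the C1q group and of the type 2 dendritic group overlapped slightly in FMC_new.

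C-ON had few members in each group, with 4 of 137 (2.92%, 0.801% to 7.31%) type 2 dendritic, 3 of 51 (5.88%, 1.23% to 16.2%) type 1 dendritic and 1 of 253 (0.395%, 0.0100% to 2.18%) C1q or microglia cells cycling. Its monocyte group had 0 of 45, with an exact upper limit of 7.87%. B cell groups had 3 of 20 cycling in C-ON and 2 of 140 in FMC_new. Cells led by *Ccr7*, *Fscn1*, *Ccl22* and *Il4i1*, genes of migratory dendritic cells, had 1 of 8 and 0 of 44, the latter with an exact upper limit of 8.04%. When the groups were set at 2000 UMIs, type 2 dendritic cells of FMC_new had 4.80% (2.95% to 7.31%) and C1q or microglia cells 2.02% (1.30% to 2.99%), and these intervals met. Of the 24 C1q or microglia members of FMC_new, 18 had at least 2 UMIs of *P2ry12*, *Tmem119* and *Sall1*, against 589 of 1170 resting cells of that group, which are shallower.

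**Figure D5:**
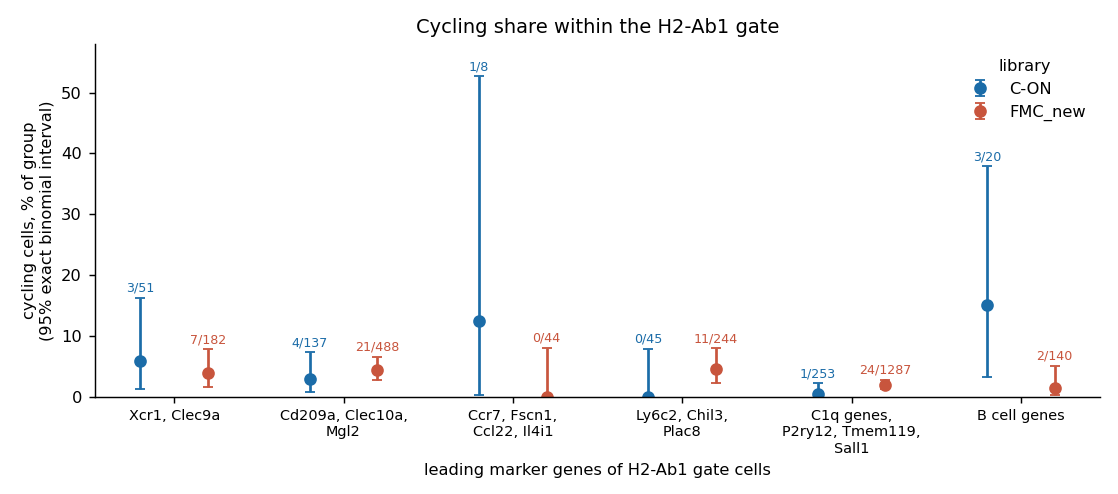
Cycling cells as percent of each marker group of the *H2-Ab1* gate (y axis) by the leading marker genes (x axis), for C-ON and FMC_new, with 95% exact binomial intervals and the counts of members over cells. In FMC_new both classical dendritic groups and the monocyte group lie at 3.85% to 4.51%, the migratory dendritic group at 0 of 44 and the C1q or microglia group at 1.86%, and the intervals of C-ON are wide.

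Cycling and resting cells of the *H2-Ab1* gate were compared in FMC_new alone, since C-ON had 14 members there and 20 were required. Of 8618 genes compared, 773 (8.97%) were higher and 543 (6.3%) lower, with a median log2 fold of 0.05 over all genes compared. There is no second library behind these values. All 27 replication genes were higher, beside 8.97% of all genes, as were 32 of 33 mitosis and 12 of 12 chromatin and tubulin genes. *Rrm2* stood at 237 against 2.11 CPM, *Pbk*, a mitotic kinase, at 99.2 against 0.211 CPM and *H2afx* at 720 against 44.7 CPM. *Pttg1* was lower here, at 36.0 against 73.5 CPM, but with no upper limits on genes and UMIs its log2 fold was 0.12, and *Anln* was higher, at 65.8 against 28.7 CPM.

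Of 19 genes of cyclin D, CDK inhibitors and quiescence, 5 were higher in this gate, beside 8.97% of all genes. *Cdkn2c* stood at 65.8 against 8.02 CPM, and *Cdkn2d* and *Rbl1* had log2 folds of 1.95 and 2.04. Of the genes higher in the T gate and compared in both gates, 362 were also higher in the *H2-Ab1* gate, 56 were neither and 0 lower. Of those lower in the T gate, 135 were also lower here, 104 were neither and 1 was higher. Beside these stand 8.97% higher and 6.3% lower of all genes compared in the *H2-Ab1* gate. The same rule selected the members of both gates, so this overlap describes the choice. The cell cycle lists account for 67 of the 448 and 71 of the 773 higher genes.

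Of 7 MHC class II genes 0 were called, beside 8.97% higher and 6.3% lower of all genes, with log2 folds between -0.54 and 0.12. Cycling and resting cells were both chosen by at least 5 UMIs of *H2-Ab1*, itself a class II gene. Cells low in class II were thus left out of both sides, and the comparison cannot show whether cycling cells lower these genes. Of the markers of the classical dendritic cells, 0 of 5 were called in each list. Migratory dendritic cell genes were lower in 3 of 4, beside 6.3% of all genes, led by *Ccr7*, the receptor that guides dendritic cells to lymph nodes, at 4.96 against 81.5 CPM, and *Il12b*, an interleukin 12 chain, was at 0 UMIs in members against 51.6 CPM, which is at least 13.9-fold lower. With no upper limits on genes and UMIs the *Il12b* fold turned to 1.19 on the log2 scale. In C-ON *Ccr7* stood the other way, at 133 against 57.4 CPM, from 26 UMIs in its 14 members, and *Il12b* at 363 against 64.8 CPM. There 92.3% of the *Ccr7* and all 71 *Il12b* UMIs came from 1 cell. The migratory dendritic group of FMC_new had 0 members among 44 cells. Within its type 2 dendritic cells *Ccr7* stood at 3.78 against 14.4 CPM, from 1 member UMI. Within its C1q or microglia cells *Ccr7* stood at 6.95 against 1.93 CPM, from 2 member UMIs in 1 cell. *Il12b* was at 0 UMIs in the members of these groups, with 0.0954 and 7.81 expected. These counts lie under the minimum for a call, so a lower level within a group was not shown.

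Macrophage genes were lower in 3 of 8, beside 6.3% of all genes. *Mrc1*, the mannose receptor of border macrophages, stood at 28.5 against 118 CPM, *Ms4a7* at 4.96 against 55.9 CPM, and *Apoe*, the lipid carrier, at 1999.8 against 5231 CPM. The share of cells with an *Mrc1* UMI was not lower, at 25.8% of members against 24.0% of resting cells, which are shallower. *Mrc1* and *Apoe* had the same direction in C-ON, at 30.7 against 217 CPM and 1201.5 against 4388 CPM, although 95.3% of the *Apoe* UMIs of those members came from 1 cell. *Retnla*, a gene of alternatively activated macrophages, was at 0 UMIs in the members of both libraries, against 116 CPM in resting cells of FMC_new (at least 31.1-fold lower) and 99.9 CPM in C-ON (at least 6.51-fold lower). The groups of the gate have different cycling shares, so the genes were also compared within the groups with at least 20 members, a step added after the values were seen. Among C1q or microglia cells of FMC_new, 24 members stood against 1170 resting cells at 41.7 against 190 CPM for *Mrc1*, 0 against 108 CPM for *Ms4a7* and 0 against 213 CPM for *Retnla*. *Apoe* stood at 5256 against 10059 CPM there, a log2 fold of -0.94 and so within 2-fold. This group itself joins microglia and border macrophages, whose shares differed between members and resting cells. At least 2 UMIs of border macrophage genes were in 2 of the 24 members and 257 of the 1170 resting cells. *Cdkn2c* was higher in this group, at 66.0 against 7.996 CPM, and in the type 2 dendritic group, at 68.1 against 6.49 CPM over 21 members.

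Some genes outside the cell cycle lists were higher. *Cxcr4*, the receptor for CXCL12, stood at 84.4 against 32.6 CPM in FMC_new and 143 against 41.3 CPM in C-ON. Within groups of FMC_new it stood at 90.7 against 30.3 CPM in type 2 dendritic cells and at 24.3 against 22.7 CPM in C1q or microglia cells. *Il2ra* stood at 26.1 against 7.53 CPM, in 10 of 66 members. *Chil3*, a monocyte and granulocyte precursor gene, had all of its 141 member UMIs in 1 cell, and 25 of the 773 higher genes had at least 50% of their member UMIs in 1 cell.

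Free RNA was measured beside these results. The pituitary hormone gene *Gh*, which leukocytes should lack, had a UMI in 100% of T and *H2-Ab1* gate members of FMC_new and in 0 of those of C-ON. Its mean was 15.2 UMIs in cycling against 28.6 in resting T gate cells and 14.9 against 44.9 in *H2-Ab1* gate cells. Its median was 12 UMIs in cycling and in resting cells of both gates, while total UMIs were 2.32 and 1.82 times higher in members. Its part in the lower genes of FMC_new was not tested.

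The *Jchain* gate did not pick plasma cells alone. In FMC_new a *Jchain* UMI was found in 97.3% of all kept cells and resting T gate cells had a median of 4, so 10 UMIs can be reached without synthesis, while in C-ON 45.9% had a UMI and the T cell median was 0. Of the 6 members of C-ON with at least 10 *Jchain* UMIs, alone or with other gates, all 6 had at least 3 UMIs of *Mzb1*, a chaperone of antibody-secreting cells, and of the 41 in FMC_new 20 had. The other 21 had fewer *Mzb1* UMIs.

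Within the gate, cells with both *Mzb1* and at least 5% immunoglobulin UMIs numbered 5 in C-ON, 4 of them also in the T gate, and 16 in FMC_new, 6 of them also in the T gate. The highest share was 44.7% in a C-ON cell with 812 *Jchain* UMIs and 54.1% in an FMC_new cell with 477 *Jchain* and 426 *Igha* UMIs, the IgA heavy chain. *Ptprc* is low in plasma cells, and of all kept cells with at least 10 *Jchain* and 3 *Mzb1* UMIs only 147 of 404 in C-ON and 640 of 1336 in FMC_new had it. Counted without the *Ptprc* rule, 7 of the 404 (1.73%, 0.699% to 3.54%) and 27 of the 1336 (2.02%, 1.34% to 2.93%) were over the cycling cut. No library reached 20 members in the *Jchain* gate alone, so no levels were compared.

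Mitosis and replication transcripts were set against each other within each library. Mitosis list UMIs were 1.11 times replication list UMIs in T gate members of C-ON and 1.15 times in its *H2-Ab1* gate members. In FMC_new the ratios were 1.59 and 1.76. More mitosis than replication UMIs were held by 15 of 28 and 7 of 14 members in C-ON and by 74 of 117 and 44 of 66 in FMC_new. The rule counts *Top2a*, *Mki67* and *Ube2c*, which favor late phases, and how many early S phase cells it misses was not tested.

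Members outside all gates were few and mixed. In FMC_new the 16 cells included 4 led by monocyte genes, 2 by granulocyte genes, 3 by natural killer genes, 3 by B cell genes and 3 by C1q or microglia genes. In C-ON the 2 cells were led by monocyte and by natural killer genes.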

How the data were processed

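Single-cell suspensions of mouse optic nerve were sequenced with the 10x Genomics 5′ kit. The authors deposited raw UMI counts per gene and barcode, which per the file headers came from Cell Ranger 7.2.0 on GRCm38 (the methods name another version). No count was normalized. Totals were 85101211 and 129113325 UMIs.

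Barcodes with 500 to 5000 genes, 500 to 20000 UMIs and at most 5% mitochondrial UMIs were kept. The members, gates and gene lists were chosen with earlier results of these data known. Members were compared with resting cells as CPM of summed counts per library. A gene at 0 was set to 3 counts. Genes needed 10 UMIs, observed or expected among members, and a 2-fold difference in every library with 20 members. Named genes were those with the highest and lowest folds of each list and the 15 highest and lowest outside the lists. Others are said to be named later. Shares carry exact Clopper-Pearson intervals (95%). For equal depth, cells were thinned to 2000 UMIs, leaving out 213 shallower cells of C-ON and 1116 of FMC_new. The fold procedure was tested on simulated data. Both libraries are of 1 condition and cells are not replicates, so no p-value was computed. Work was done in Python 3.11.15 with scipy 1.17.1, pandas 2.3.3 and scanpy 1.11.5.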

Additional observations from a re-analysis of the deposited data

Results flagged for a closer look

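Barcodes over the upper limits on genes and UMIs were left out of all results. Among those with *Ptprc*, 26 of 139 (18.7%, 12.6% to 26.2%) in C-ON and 80 of 517 (15.5%, 12.5% to 18.9%) in FMC_new met the cycling cut, above the shares in kept cells. Whether these are large dividing cells or droplets with more than 1 cell was not tested.

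Cells with at least 10 *Jchain* and 3 *Mzb1* UMIs over the cycling cut, with or without *Ptprc*, numbered 7 in C-ON and 27 in FMC_new, and the *Ptprc* rule leaves out those without it.

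*Csmd3* was the 1 gene called in opposite directions in the gates. Its log2 fold was -2.99 in C-ON and -2.26 in FMC_new for T gate cells and 1.27 for *H2-Ab1* gate cells of FMC_new, where 58.5% of its 65 member UMIs came from 1 cell. Without cells rich in myelin UMIs its T gate call was lost. The difference between the gates was not tested.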

How the results depend on the processing

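Shares and counts stayed within their spread, or within 1.5 times, for 84 alternative values and moved further for 58. Members made up 3.06% of *Ptprc* cells, and 3.62% with a cut of 3, 2.45% with 6, 3.93% with 2 *Ptprc* UMIs, 3.85% with no upper limits and 1.60% at 2000 UMIs (2.58% to 3.18% leaving out a library). For T gate cells these were 4.38%, 3.24%, 4.41%, 4.24% and 2.26% in place of 3.78%, with 4.29% under stricter gates of 4, 20 and 10 UMIs (3.30% to 3.92%). For *H2-Ab1* gate cells they were 3.02%, 2.06%, 3.53%, 3.74% and 1.01% in place of 2.66%, with 2.81% under stricter gates, 2.62% without glial UMIs, 2.58% with *Mzb1* required for plasma cells and 2.63% without high Scrublet scores (2.63% to 2.66%). For *Jchain* gate cells, 1.39% became 1.79%, 0.595% and 3.29% with cuts of 3 and 6 and 2 *Ptprc* UMIs, 0.911% under stricter gates, 1.69% at 2000 UMIs and 0.815% with *Mzb1* (1.04% to 1.47%).

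Of members, the T gate share of 46.2% became 39.5% with no upper limits and 62.6% at 2000 UMIs (44.7% to 53.8%). The *H2-Ab1* share of 25.5% became 28.1%, 26.8% under stricter gates and 18.2% at 2000 UMIs (25.2% to 26.9%). The *Jchain* share of 2.23% became 1.20% with a cut of 6, 1.59% under stricter gates, 4.04% at 2000 UMIs and 0.955% with *Mzb1* (1.92% to 2.29%).

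Of genes in the T gate, 448 higher became 122 at 2000 UMIs and 194 with a minimum of 30 UMIs (717 to 881 with 1 library). The 285 lower became 114 with no upper limits, 24, 98, 100 without cells rich in myelin UMIs and 108 without high Scrublet scores (726 to 991). In the *H2-Ab1* gate, 773 higher became 405 with no upper limits, 330 and 392, and 543 lower became 154 and 168. Of 728 values of single genes, 634 were alike, 90 moved and 4 changed sign, namely *Pttg1* (0.12), *Il12b* (1.19) and *Cd79b* (0.61) in the *H2-Ab1* gate with no upper limits and *Slfn5* (0.15) in the T gate at 2000 UMIs. Causes were not tested. The alternatives on *Mzb1*, myelin UMIs and Scrublet scores were chosen after seeing the data. The *Jchain* gate gave no gene counts, nor did the *H2-Ab1* gate without FMC_new. No paired analysis was possible because the labels hold 1 group, so no groups share replicate numbers. Cycling and resting cells were compared within each library, and a test over these pairs was not run.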
